A study of Homo sapiens with 16 samples.

Results

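Nuclear pore complex genes were defined by their symbol in the deposited expression tables. A symbol counted if it was NUP and a number, with nothing after it except an optional L and digit. AAAS, POM121, POM121C, SEH1L, SEC13, TPR, RANBP2, NDC1, GLE1 and RAE1 were also included. This rule gave 32 of the 61906 genes listed, with 475 transcripts between them. Expression was measured in 2 human lines in long use. HEK-293T derives from embryonic kidney and expresses the large T antigen of SV40. HT-1080 derives from a fibrosarcoma. Either line received siRNA at 20 nM, directed at HNRNPH1 (siHNRNPH1) or serving as a negative control (siNegative), and RNA was taken 48 h later. HNRNPH1 encodes a splicing regulator that binds G-rich RNA. No other treatment distinguishes the groups in the labels. Each of the 4 groups has 3 short-read libraries, which the labels call biological replicates, and 1 pool of full-length cDNA sequenced by IsoSeq.

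The nuclear pore complex is the channel through the nuclear envelope for proteins and RNA. A Y-shaped outer ring complex coats the envelope on both faces, an inner ring lines the membrane and holds the central channel, and membrane proteins anchor the whole. Phenylalanine-glycine repeats of the channel proteins form the permeability barrier, filaments on the cytoplasmic face finish mRNA export, and a basket reaches into the nucleus. In proliferating cells, pores are disassembled and rebuilt at each division. The 32 genes were placed by role in the outer ring (8 genes), inner ring (5), central channel (4), transmembrane and anchor group (6), cytoplasmic face (6) and nuclear basket (3).

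Promoter windows from RefSeq (GRCh38.p14) were available for 30 of the 32 genes, each running from upstream of the start site to just inside the gene. Words for 5 factor families were searched on both strands: ACTTCCG for ETS factors, CCAAT for NFY, and longer words for NRF1, YY1 and E2F, which the capitals below spell out. The second of 2 E2F words matched none of the 30 windows and is not printed. The NRF1 word was present in 3 of the 30 windows, or 10%, against 1.36% of 27305 windows of the same length. Stretches of 30 bases are printed with the matched word in capitals, and the last part of each name gives the position.
NUP107, chr12:68686884-68686913, plus strand: ggctgaagtcGCGCATGCGCtagatgggaa
NUP50, chr22:45163859-45163888, plus strand: agggagctggGCGCATGCGCcgcgtaaggg
NUP62, chr19:49929544-49929573, minus strand: cgggcccagtGCGCATGCGCagccgcgcgc
ACTTCCG or its reverse complement was present in 9 windows, or 30%, against 7.23% of all windows. Those of the near-identical genes POM121 and POM121C and of SEC13, which are among the genes that rose in HT-1080, are shown beside that of NUP35, which fell.
POM121, chr7:72879262-72879291, plus strand: ccaggaggcggACTTCCGgtgcactcctgc
POM121C, chr7:75486351-75486380, minus strand: ccgggaggcggACTTCCGgtgcactcctgc
SEC13, chr3:10321106-10321135, minus strand: gggcccggcgcCGGAAGTgagctgttccga
NUP35, chr2:183124336-183124365, plus strand: tagcgcaggtcCGGAAGTtacgcaacccca
The other windows with the word, not printed, were those of AAAS, NUP155, NUP160, NUP54 and NUP58, all lower in HT-1080. The word therefore occurred in genes of both directions, and the near-identical windows of POM121 and POM121C count separately in the 30%. CCAAT was present in 12 windows (40%) against 35.7% of all windows. The YY1 word was present in 3 (10%) against 0.916%, and an E2F word in 1 (3.33%) against 2.31%, and 1 window of each is shown.
NUP88, YY1, chr17:5419633-5419662, minus strand: agttgggccAAGATGGCGGCcgccgaggga
NUP155, E2F, chr5:37371067-37371096, minus strand: caaggcgctcgTTTGGCGCgcgcgccctag
These matches describe letters in a window and do not show binding. A link between them and the changes with the siRNA was not tested. The comparison windows were not matched for base composition or expression.

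Levels are given as CPM, the expected count of a gene per M (mega) counts of its library. Libraries held 107.7 to 121.0 M expected counts in HEK-293T and 27.3 to 32.7 M in HT-1080. Fold changes and adjusted p-values are from edgeR's quasi-likelihood test with TMM scaling, fitted to the 6 libraries of 1 line and adjusted by Benjamini-Hochberg over all genes tested, and a gene was called at an adjusted p under 0.05. HNRNPH1 itself stood at 1105 to 1121 CPM in HEK-293T siNegative libraries and at 234.1, 376.2 and 394.3 CPM in siHNRNPH1 libraries. In HT-1080 it stood at 605.8 to 634.6 and 228.5 to 231.5 CPM. Of the line markers listed, 4 of 5 for HEK-293T and 6 of 6 for HT-1080 were higher in their own line: NEFM averaged 258.0 CPM in HEK-293T siNegative and 0.01101 CPM in HT-1080 siNegative, and CD44 averaged 1.685 and 3037 CPM. The exception was NEFL, at 66.91 CPM in HEK-293T and 109.6 CPM in HT-1080. In bulk RNA, fewer cells of a kind and less RNA per cell cannot be told apart.

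Replicate 1 of HEK-293T siHNRNPH1 stood apart from replicates 2 and 3, where chi-square divided by its degrees of freedom was 811 and 847, against 9.1 between those 2. The 32 genes together took 0.387% of its counts and 0.608% and 0.614% in the others. Its departure varied with transcript length. Among the 18 genes whose longest IsoSeq model was at least 5 kb, the median ratio of replicate 1 to the mean of replicates 2 and 3 was 0.566 (range 0.303 to 1.31), and among the 13 shorter ones it was 0.933 (0.554 to 1.69). RANBP2, with the longest model (9970 nt), stood at 138.8 CPM in replicate 1 against 447.7 and 467.3 CPM. Across these 31 genes Spearman's rho between length and ratio was -0.66, a description over genes of 1 library. Replicate 2 of HT-1080 siNegative showed a smaller departure, with chi-square ratios of 17.8 and 17.4 against its partners and 1.78 between them, and a rho with length of -0.73 over 30 genes. HEK-293T results are therefore given with and without replicate 1. The fit without it compares the 2 remaining siHNRNPH1 libraries, which were close to each other, with 3 controls. Replicate 1 was singled out after the data were seen.

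**Figure D1:**
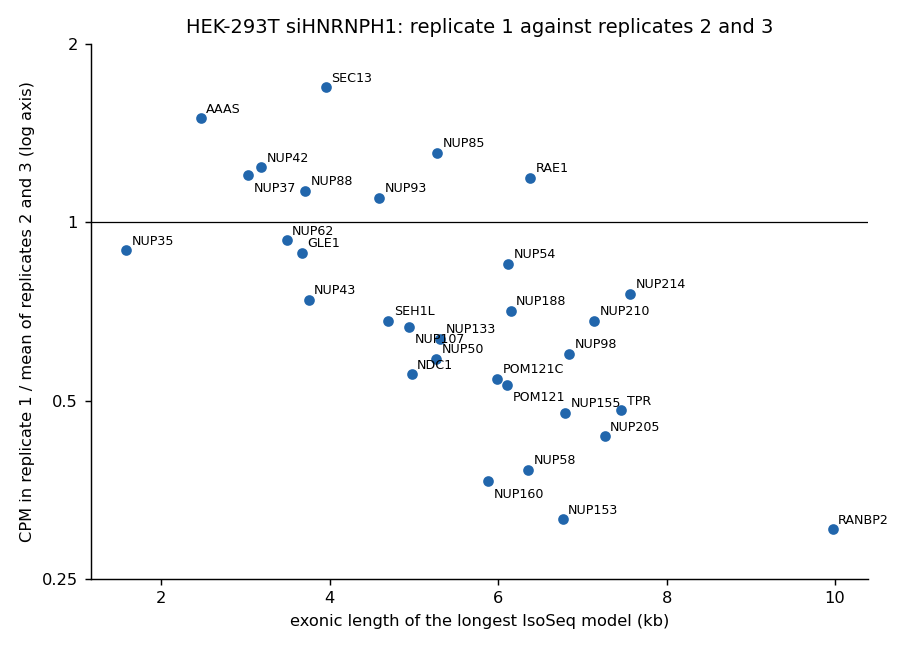
Ratio of CPM in HEK-293T siHNRNPH1 replicate 1 to the mean of replicates 2 and 3 (log axis) against the exonic length of the longest IsoSeq model in kb, 1 point per gene. RANBP2 lies lowest at 0.303 and SEC13 highest at 1.69, and the 18 genes of at least 5 kb have a median of 0.566.

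In HT-1080, most pore genes fell after HNRNPH1 depletion. Of 31 genes tested, 28 were called, 24 lower and 4 higher. Over all 16145 genes tested 65.3% were called, 32.6% lower and 32.7% higher, so that the number called is to be read against a line in which most genes moved, while the split between directions was even over all genes. The median log2 fold change was -0.53 over the 31 pore genes and 0.01 over all genes. The genes that rose were POM121C, POM121, GLE1 and SEC13. NUP214, NUP133 and NUP210 were not called. With the spread shared over the 12 libraries of both lines, 19 were called, 15 lower and 4 higher, against 29.3% of all genes (14.5% lower and 14.8% higher). The 9 genes that lost the call were NUP160, NUP58, NUP98, AAAS, NUP42, RAE1, RANBP2, NUP153 and TPR. The siHNRNPH1 libraries all lay below the controls for 22 of 32 genes and above them for 4, against 33.5% and 40.7% of genes with a mean of at least 1 CPM. The genes were chosen with earlier results of these data known, and this count is a description of the list.

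In HEK-293T, 1 of 32 genes was called with all libraries, NUP43, which fell, against 10% of all genes tested (4.88% lower and 5.12% higher). Unadjusted p-values were under 0.05 for 3 of the pore genes, against 5267 of all 19966 genes. The siHNRNPH1 libraries all lay below the controls for 4 genes and above them for 5, against 23.2% and 22.7% of genes with a mean of at least 1 CPM. The 5 include NUP210L, which lies under that level, at means of 0.06 CPM in siNegative and 0.15 CPM in siHNRNPH1. Without siHNRNPH1 replicate 1, 23 genes were called, 12 higher and 11 lower, against 61.8% of all genes (30.5% higher and 31.3% lower), and the median log2 fold change was 0.02. The 12 include NUP210L (edgeR adjusted p = 0.0189), which had 3 to 22 counts per library. The HEK-293T count thus depended on 1 library, and its near-even split between directions comes from the fit without that library, since the fit with all libraries made 1 call.

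**Figure D2:**
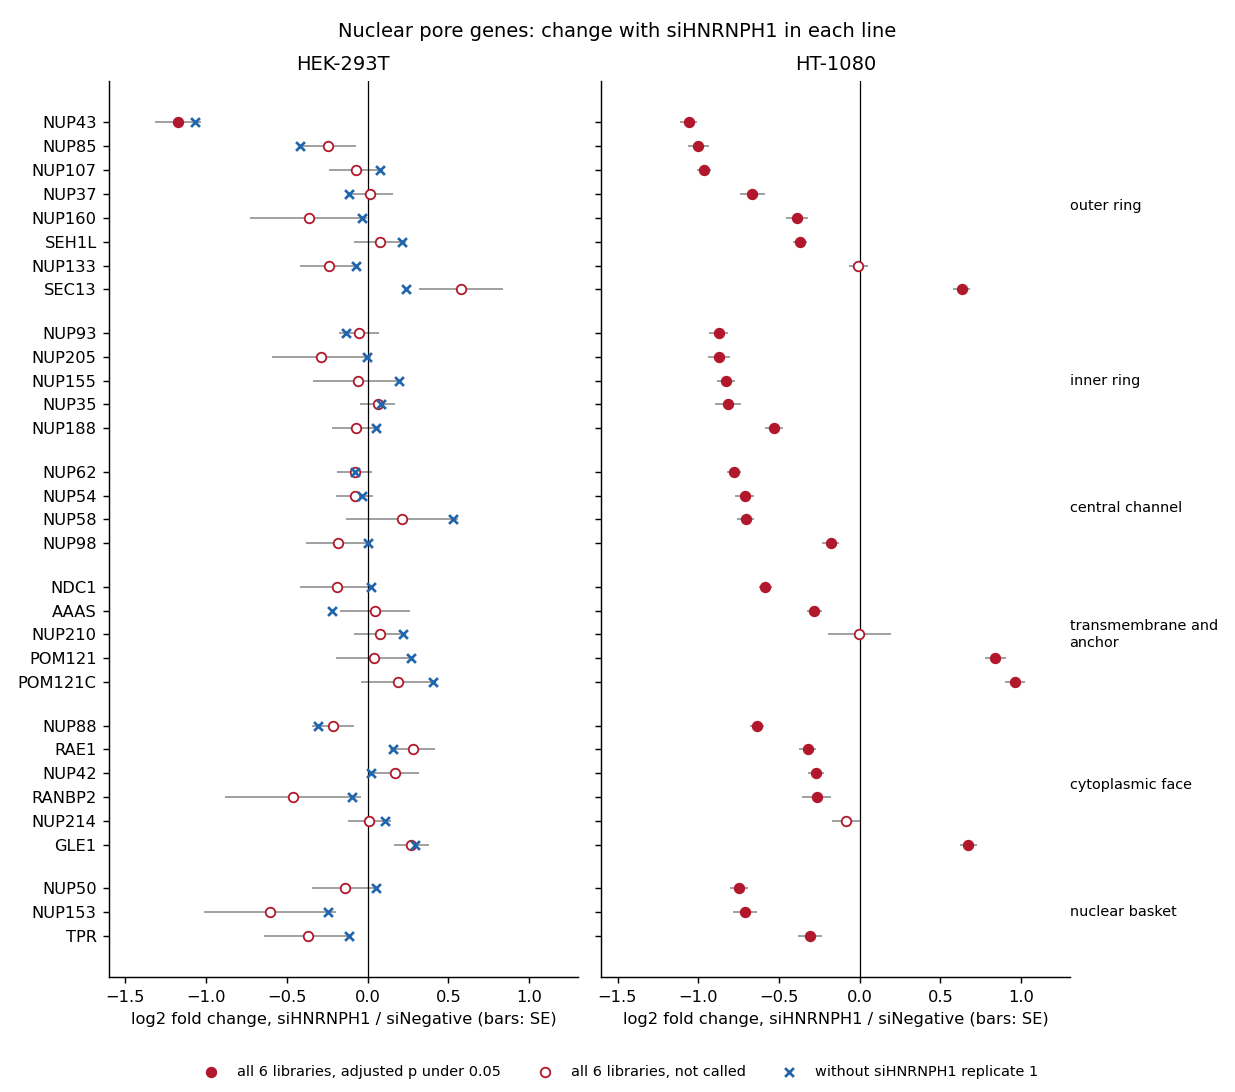
Log2 fold change (siHNRNPH1 over siNegative) with SE for each pore gene tested in both lines, ordered by role, in HEK-293T (left) and HT-1080 (right). Filled circles were called with all 6 libraries, open circles were not, and crosses show HEK-293T without siHNRNPH1 replicate 1. NUP43 is the only filled point on the left, and 24 of the 28 filled points on the right lie below 0.

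The 3 pore genes with the largest decreases in HT-1080, NUP43, NUP107 and NUP85, belong to the outer ring, although the inner ring had the lower median log2 fold change (-0.83 against -0.53). All 8 genes were tested in each line: 6 fell and 1 rose in HT-1080, and 1 fell in HEK-293T. Over all genes, 32.6% were called lower and 32.7% higher in HT-1080, and 4.88% lower in HEK-293T. NUP43 (ENSG00000120253.14), a beta-propeller subunit at the short arm of the Y, stood at 170.1, 173.1 and 168.5 CPM in HEK-293T siNegative and at 62.59, 82.86 and 86.29 CPM in siHNRNPH1. In HT-1080 it stood at 54.51, 56.28 and 52.33 CPM in siNegative and at 27.13, 27.68 and 27.18 CPM in siHNRNPH1. The groups did not overlap in either line, and the siHNRNPH1 libraries sat near the midpoint of the control level or below it. The log2 fold change was -1.17 (SE 0.14, edgeR adjusted p = 0.00978) in HEK-293T, -1.07 (SE 0.03, adjusted p = 1.27e-17) without replicate 1, and -1.06 (SE 0.05, adjusted p = 1.32e-07) in HT-1080. It was the only pore gene called in both lines with all libraries, where 2.8% of all genes were called lower in both, 2.62% higher in both, and 0.56% and 0.906% in opposite directions, 6.89% in all. The call in HEK-293T held in 7 of 12 alternatives, with adjusted p up to 0.0836. It was lost without any 1 of the siNegative replicates, without siHNRNPH1 replicate 2 and with the replicate number as a block (adjusted p = 0.0779), while the log2 fold change stayed between -1.25 and -1.07. IsoSeq listed 13 and 11 NUP43 models in the siNegative and siHNRNPH1 pools of HEK-293T and 7 and 1 in those of HT-1080. A model counts once whatever its abundance, so these numbers carry no level.

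NUP107 and NUP85 fell in HT-1080 by about as much as NUP43. NUP107, a core subunit of the Y stem, stood at 96.65, 93.47 and 94.48 CPM in siNegative and at 52.30, 49.61 and 51.06 CPM in siHNRNPH1 of HT-1080, a log2 fold change of -0.96 (SE 0.04, edgeR adjusted p = 8.55e-08). In HEK-293T it stood at 155.8, 156.8 and 156.0 CPM in siNegative and at 113.8, 166.6 and 175.4 CPM in siHNRNPH1, so that replicate 1 lay below the controls and replicates 2 and 3 above them. The log2 fold change there was -0.07 (adjusted p = 0.818), and 0.07 (adjusted p = 0.0432) without replicate 1, a reversed sign. NUP85, a short-arm subunit that binds SEH1L, went from 36.77, 41.07 and 37.13 CPM to 20.10, 19.72 and 20.54 CPM in HT-1080, a ratio of 0.501 (adjusted p = 6.62e-07). In HEK-293T its log2 fold change was -0.24 (adjusted p = 0.416) and -0.42 (adjusted p = 3.96e-10) without replicate 1. NUP37, NUP160 and SEH1L, the other outer ring genes that fell in HT-1080, had log2 fold changes of -0.67, -0.39 and -0.37. NUP133, the tip of the Y stem, gave -0.01 (adjusted p = 0.896).

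SEC13, which serves both the outer ring and the COPII coat of secretory vesicles, rose in HT-1080. It went from 97.02, 104.4 and 96.0 CPM to 166.3, 162.5 and 154.1 CPM, a log2 fold change of 0.63 (SE 0.05, edgeR adjusted p = 4.16e-06). In HEK-293T it stood at 122.9, 119.3 and 119.1 CPM in siNegative and at 249.8, 151.6 and 144.1 CPM in siHNRNPH1. All siHNRNPH1 libraries were above the controls there, with replicate 1 far above the other two. The log2 fold change was 0.58 (adjusted p = 0.223) with all libraries and 0.24 (adjusted p = 6.1e-07) without replicate 1.

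All 5 inner ring genes fell in HT-1080, where 32.6% of all genes were called lower. None was called in HEK-293T with all libraries, where 10% of all genes were. NUP93, the scaffold that links the inner ring to the channel, went from 61.38, 67.21 and 64.25 CPM to 38.22, 37.58 and 34.52 CPM in HT-1080, a log2 fold change of -0.87 (SE 0.06, edgeR adjusted p = 1.11e-06). In HEK-293T it lay at 130.9 to 131.9 CPM in siNegative and at 136.9, 123.6 and 125.3 CPM in siHNRNPH1, with a log2 fold change of -0.05 (adjusted p = 0.817). NUP35 went from 19.92, 21.05 and 19.16 CPM to 10.96, 13.20 and 11.59 CPM in HT-1080, a log2 fold change of -0.82 (SE 0.08, adjusted p = 1.74e-05). Its HEK-293T libraries lay at 31.74 to 32.35 CPM and 31.55 to 36.59 CPM, which overlap. The large scaffold genes NUP205, NUP155 and NUP188 had HT-1080 log2 fold changes of -0.87, -0.83 and -0.53. Without replicate 1, NUP155 was called higher (0.20) and NUP93 lower (-0.13) in HEK-293T.

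All 4 central channel genes fell in HT-1080, where 32.6% of all genes were called lower. None was called in HEK-293T with all libraries, where 10% of all genes were. NUP62, the phenylalanine-glycine repeat protein for which the channel complex is named, went from 119.5, 112.9 and 119.7 CPM to 72.37, 71.63 and 70.83 CPM in HT-1080, a log2 fold change of -0.78 (SE 0.04, edgeR adjusted p = 2.54e-07). In HEK-293T its libraries overlapped, at 135.6, 138.5 and 137.0 CPM in siNegative and 126.0, 141.0 and 129.0 CPM in siHNRNPH1. NUP54, its partner, went from 39.85, 38.35 and 39.77 CPM to 24.62, 26.89 and 23.92 CPM in HT-1080 (log2 fold change -0.71, SE 0.06, adjusted p = 3.91e-06). NUP58, the third protein of that complex, showed opposite directions in the lines once HEK-293T replicate 1 was left out. It went from 183.9, 158.0 and 175.1 CPM to 110.7, 112.0 and 109.3 CPM in HT-1080, a log2 fold change of -0.71 (SE 0.05, adjusted p = 2.64e-06). In HEK-293T it stood at 100.9, 102.2 and 98.49 CPM in siNegative and at 57.68, 147.7 and 154.4 CPM in siHNRNPH1. The log2 fold change there was 0.21 (SE 0.35, adjusted p = 0.74), and 0.53 (adjusted p = 2.16e-12) without replicate 1. With all libraries the difference between the lines was not called for NUP58 (edgeR interaction adjusted p = 0.079). NUP98, which lies in the channel and on both faces, had an HT-1080 log2 fold change of -0.18, and its groups overlapped. Its call was lost with library size alone, without siHNRNPH1 replicate 1 and with the shared spread, which left 3, 3 and 2 of the 4 channel genes called (NUP58 adjusted p = 0.0538 with the shared spread). NUP62 overlaps ATF5 and IL4I1 in the RefSeq annotation, and since the strandedness of the libraries is not given in the sources used here, reads of overlapping genes may be shared.

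The transmembrane and anchor group held both directions. POM121 and POM121C encode near copies of a membrane-spanning pore protein, so reads may be divided between them by estimation and they are not independent. POM121C went from 99.82, 85.07 and 100.9 CPM to 195.3, 197.4 and 190.2 CPM in HT-1080, a log2 fold change of 0.96 (SE 0.06, edgeR adjusted p = 7.32e-07). POM121 went from 106.6, 90.79 and 111.2 CPM to 194.5, 189.9 and 194.5 CPM (log2 fold change 0.84, SE 0.07, adjusted p = 2.91e-06). The lowest control library in both genes was siNegative replicate 2, and neither gene's groups overlapped. In HEK-293T, POM121C stood at 111.4, 111.2 and 109.2 CPM in siNegative and at 82.96, 160.1 and 145.1 CPM in siHNRNPH1, and POM121 at 187.2, 189.5 and 186.0 CPM and 124.9, 243.3 and 226.1 CPM. Replicate 1 again lay below the controls and the other libraries above them. Neither was called with all libraries, and without replicate 1 the log2 fold changes were 0.41 (adjusted p = 1.45e-09) and 0.27 (adjusted p = 1.15e-07).

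AAAS, the ALADIN protein mutated in triple-A syndrome and anchored by NDC1, fell slightly in HT-1080. It went from 57.98, 60.27 and 59.89 CPM to 52.57, 50.75 and 50.25 CPM, a log2 fold change of -0.28 (SE 0.05, edgeR adjusted p = 0.000448), and this call was lost when the spread was shared over 12 libraries (adjusted p = 0.253). In HEK-293T it stood at 88.46, 88.70 and 91.02 CPM in siNegative and at 119.9, 82.31 and 77.24 CPM in siHNRNPH1, with a log2 fold change of 0.04 (adjusted p = 0.921) that turned to -0.22 (adjusted p = 7.5e-06) without replicate 1. NDC1, a membrane protein needed for pore assembly, had an HT-1080 log2 fold change of -0.58. NUP210 stood at 249.3, 252.6 and 248.0 CPM in HEK-293T siNegative and at 2.60, 1.73 and 1.65 CPM in HT-1080 siNegative, and NUP210L was at 0.06 and 0.01 CPM, with 3 to 22 counts per library in HEK-293T and at most 1 in HT-1080.

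On the cytoplasmic face, 4 of 6 genes fell and GLE1 rose in HT-1080, against 32.6% of all genes called lower and 32.7% higher. GLE1, which activates the export helicase DDX19 at the pore, went from 39.22, 37.22 and 39.84 CPM to 68.08, 61.92 and 64.16 CPM, a log2 fold change of 0.67 (SE 0.05, edgeR adjusted p = 2.94e-06). In HEK-293T it went from 91.66, 95.12 and 94.99 CPM to 106.6, 119.6 and 120.4 CPM. These groups did not overlap, but the log2 fold change of 0.27 was not called (adjusted p = 0.18). It was called without replicate 1 (0.30, adjusted p = 3.11e-08), by DESeq2 (adjusted p = 0.025) and with a shared spread (adjusted p = 0.0113). NUP88, which holds NUP214 at the cytoplasmic ring, went from 85.04, 89.59 and 86.92 CPM to 58.70, 58.16 and 59.38 CPM in HT-1080 (log2 fold change -0.64, SE 0.04, adjusted p = 1.28e-06). In HEK-293T it stood at 108.4 to 110.0 CPM and at 103.9, 89.84 and 93.96 CPM, and was called only without replicate 1 (-0.31). NUP88 overlaps RABEP1 in the annotation. RAE1, NUP42 and RANBP2 had HT-1080 log2 fold changes of -0.32, -0.27 and -0.27, and NUP214 gave -0.08 (adjusted p = 0.439). With the shared spread only GLE1 and NUP88 of the 6 were called, and RANBP2 kept its call in 5 of 12 alternatives. RANBP2 shares sequence with the RGPD genes, and its count is uncertain for that reason.

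The 3 basket genes fell in HT-1080, where 32.6% of all genes were called lower. NUP50, which helps recycle importins, NUP153, which docks the basket, and TPR, its main filament, had log2 fold changes of -0.75, -0.71 and -0.31. With the shared spread, 1 of the 3 was called, since NUP153 (adjusted p = 0.101) and TPR (adjusted p = 0.28) were not. In HEK-293T, NUP153 stood at 298.8, 304.8 and 297.7 CPM in siNegative and at 83.28, 256.5 and 271.6 CPM in siHNRNPH1, with a log2 fold change of -0.60 (edgeR adjusted p = 0.408), or -0.24 (adjusted p = 3.56e-07) without replicate 1. TPR showed the same order of libraries, at 266.5 CPM in replicate 1 and 545.8 and 562.6 CPM in the others. Both have long transcripts, and the part of the replicate 1 departure in their values was not tested.

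**Figure D3:**
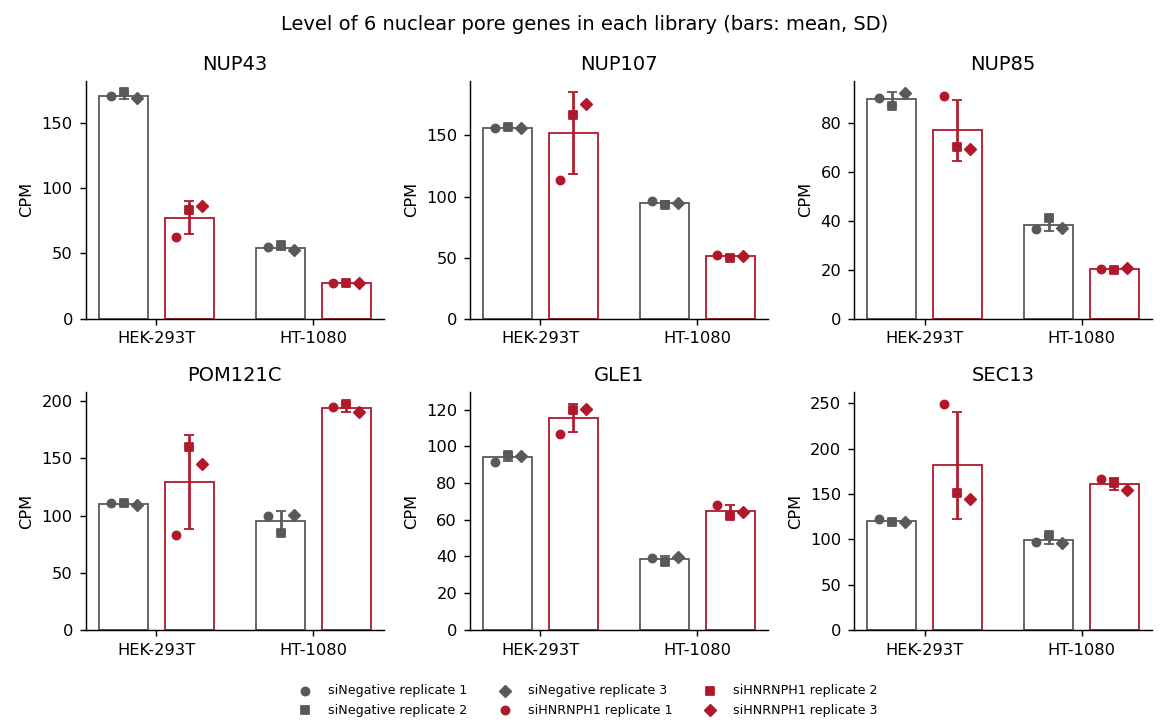
CPM of NUP43, NUP107, NUP85, POM121C, GLE1 and SEC13 in each library of both lines, with bars at the mean and error bars of 1 SD (n = 3). NUP43 falls in both lines, NUP107 and NUP85 separate fully in HT-1080 alone, and the HEK-293T siHNRNPH1 circle (replicate 1) lies away from the other 2 libraries in most panels.

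The 2 lines were compared directly by an interaction of line and siRNA, fitted to all 12 libraries. Of 31 genes, 12 were called, all with a more negative change in HT-1080, against 19% of all genes (10.8% in that direction and 8.13% in the other). They were NUP107, NUP35, NUP93, NUP85, NUP62, NUP37, NUP54, RAE1, NUP50, NUP188, SEH1L and NUP88. The differences of log2 fold change ran from -0.96 for NUP107 to -0.50 for NUP88. Without HEK-293T siHNRNPH1 replicate 1 the count was 25, 21 more negative and 4 more positive, against 49% of all genes (26.4% and 22.7%). NUP43 had a difference of 0.04 (SE 0.13, edgeR adjusted p = 0.888). With replicate 1 left out, 10 genes were called lower in both lines (16.7% of all genes were), 4 higher in both (15%), 5 higher in HEK-293T and lower in HT-1080 (7.57%), and 0 the other way (7.59%), where 46.9% of all genes were called in both. The 5 higher in HEK-293T and lower in HT-1080 were NUP107, NUP155, NUP58, RAE1 and SEH1L.

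Unequal change among the transcripts of a gene was examined as transcript usage, by limma diffSplice and a Simes p for each gene. This test was too liberal on data simulated with a spread estimated for each transcript. That spread was the same in all libraries of a line, so the departure of replicate 1 in HEK-293T was not reproduced. With the main transcript of 200 genes lowered 4-fold, diffSplice recovered 19 in HEK-293T beside 39 false calls, and 125 in HT-1080 beside 50 false calls. A second limma test took the log2 ratio of each transcript to the rest of its gene. It estimated a spread for each transcript, drawn toward a trend over all transcripts. It made 0 false calls and recovered 0 genes in HEK-293T, and recovered 70 with 13 false calls in HT-1080. It was added after the data were seen, on the basis of the simulations, and is called the per-transcript test here. By diffSplice 5 of 31 genes were called in HEK-293T (AAAS, GLE1, NUP62, NUP88 and SEC13, against 9.59% of all genes), 20 without siHNRNPH1 replicate 1 (against 41.6%), and 6 of 30 in HT-1080 (AAAS, NUP107, NUP58, POM121, POM121C and SEC13, against 21.2%). By the per-transcript test only AAAS was called in HEK-293T (3.34% of all genes were) and only NUP58 and POM121 in HT-1080 (5.36%). Without siHNRNPH1 replicate 1 it called 7 genes in HEK-293T, AAAS, NUP155, NUP37, NUP43, NUP54, NUP58 and SEC13, against 22.6% of all genes. Simulations were not run with that library left out. Only AAAS, NUP58 and POM121, called by both tests with all libraries of a line, are described further. NUP88 in HEK-293T kept its call in every diffSplice alternative and by diffSpliceDGE, the edgeR counterpart. The per-transcript test, which recovered 0 genes in the HEK-293T simulation, did not call NUP88 (adjusted p = 0.314).

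AAAS was the only pore gene called by both tests in HEK-293T with all libraries. Its transcript ENST00000394384.7 took 7.91%, 8.04% and 6.60% of the gene in siNegative and 27.3%, 23.4% and 22.6% in siHNRNPH1. Its main transcript ENST00000209873.9 took 68.9%, 67.5% and 68.9% and then 51.2%, 54.5% and 54.8%. Replicate 1 lay near the other siHNRNPH1 libraries in both. The gene-level adjusted p was 0.00265 by diffSplice and 0.0483 by the per-transcript test, or 0.0105 by the latter without replicate 1. By diffSplice the call was lost without any 1 siNegative replicate (adjusted p 0.0973 to 0.153), and diffSpliceDGE did not call the gene. In HT-1080, ENST00000394384.7 took 6.12%, 12.3% and 9.30% and then 18.0%, 12.4% and 16.1%, and ENST00000209873.9 took 71.0%, 68.4% and 65.4% and then 55.6%, 58.4% and 55.3%. The direction was that of HEK-293T and the groups did not overlap, but the per-transcript test did not call it (adjusted p = 0.15). An exact permutation test of 3 libraries against 3 gave p = 0.1 for each of these transcripts, the smallest it can give. IsoSeq models of AAAS held an exon of 99 nt at chr12:53314751-53314849 (coordinates as in the files), which was skipped in 0 of 2 and 1 of 3 models in HEK-293T siNegative and siHNRNPH1 and in 1 of 4 models in each HT-1080 pool. Whether this exon distinguishes the transcripts above was not examined.

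NUP58 changed its transcript makeup in HT-1080. ENST00000381736.8 took 24.7%, 15.8% and 24.6% in siNegative and 48.2%, 49.2% and 42.6% in siHNRNPH1, while ENST00000463407.6 took 50.6%, 51.1% and 51.8% and then 31.3%, 33.3% and 31.3%. The order of these transcripts was reversed between the groups. The adjusted p was 1.08e-05 by diffSplice and 0.0167 by the per-transcript test. In HEK-293T, ENST00000463407.6 moved the other way, from 15.2% to 16.2% in siNegative to 20.5% to 25.6% in siHNRNPH1 without overlap, and ENST00000381736.8 lay at 58.6% to 66.1% in siNegative and at 3.82%, 61.4% and 54.2% in siHNRNPH1. The lowest of these was replicate 1. The gene was not called there with all libraries (adjusted p = 0.668 by diffSplice and 0.323 by the per-transcript test), but was without replicate 1 (0.00575 and 0.0187). In POM121 of HT-1080, ENST00000395270.5 took 6.67%, 5.77% and 4.43% and then 11.71%, 12.66% and 11.97%, and the gene had an adjusted p of 0.00109 by diffSplice and 0.0461 by the per-transcript test. Shares of POM121 transcripts depend on how reads shared with POM121C were divided.

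**Figure D4:**
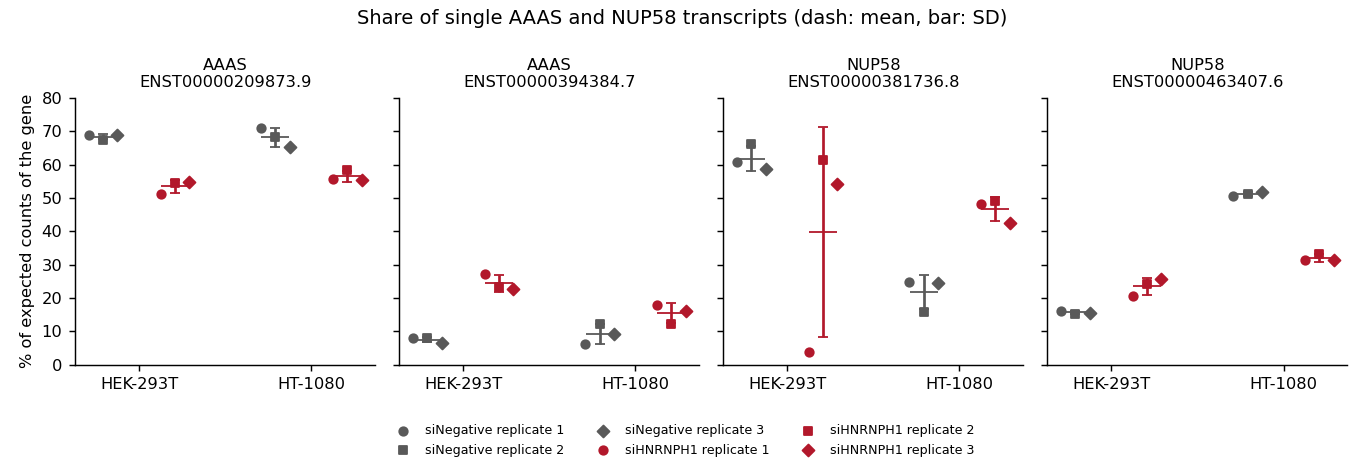
Percent of the gene's expected counts in 2 transcripts each of AAAS and NUP58, by library, with a dash at the mean and bars of 1 SD (n = 3). ENST00000394384.7 of AAAS rises from near 7.52% to 24.4% in HEK-293T, and the NUP58 transcripts exchange order in HT-1080.

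Genes of nuclear transport and the envelope, from lists of importins, exportins, the Ran cycle, mRNA export, pore assembly, SUMO at the pore and the lamina, were set beside the pore genes. Of these 54 genes, 44 were called in HT-1080, 39 lower and 5 higher, against 65.3% of all genes (32.6% lower and 32.7% higher). Their median log2 fold change was -0.35. LMNB1, which encodes lamin B1, went from 150.6, 147.7 and 144.9 CPM to 27.58, 30.75 and 27.08 CPM (log2 fold change -2.44, edgeR adjusted p = 5.24e-09). TMPO, an inner membrane lamina binder, had a log2 fold change of -1.69, KPNA2, an importin alpha, -1.17, and RANBP1, a Ran cofactor, -1.13. The Ran cycle list had 5 of 6 genes lower and none higher, and the lamina list 10 of 11 lower. The genes that rose were the importins KPNA5, IPO13 and KPNA6, at log2 fold changes of 0.98, 0.77 and 0.18, and the export genes NXF1 and MCM3AP, at 0.33 and 0.24.

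In HEK-293T, 3 of the 54 were called with all libraries, against 10% of all genes. Without siHNRNPH1 replicate 1 the count was 39, 19 higher and 20 lower, against 61.8% of all genes (30.5% higher and 31.3% lower). DDX19A, a DDX19 helicase gene, went from 131.7, 130.1 and 129.8 CPM to 69.56, 75.57 and 73.89 CPM (log2 fold change -0.87, edgeR adjusted p = 0.0101). PCID2, of the TREX-2 export complex, went from 25.11, 23.42 and 24.77 CPM to 9.07, 12.69 and 12.43 CPM (log2 fold change -1.13, adjusted p = 0.0112). Both fell in HT-1080 as well, by 0.30 and 0.69 on the log2 scale, so these export genes, like NUP43, were lower in both lines. DDX19B, the related DDX19 gene, was not called in HEK-293T (-0.25, edgeR adjusted p = 0.398), except without replicate 1 (-0.42, adjusted p = 2.72e-09). In HT-1080 it fell (-0.47, adjusted p = 1.56e-04). Reads may be divided between DDX19A and DDX19B by estimation, and which of them GLE1 acts on was not examined. SUN2, an inner membrane protein that links to the cytoskeleton, rose in HEK-293T (log2 fold change 0.66, adjusted p = 0.0221) and gave -0.02 (adjusted p = 0.711) in HT-1080.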

How the data were processed

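Per the submitters' processing notes, the authors estimated expected counts per transcript with RSEM on build GRCh38.p13. The aligner, trimming, annotation release and strandedness are not given in the sources used here. The deposited values are expected counts per transcript, not scaled for depth, in 1 table per line. The IsoSeq files hold exon positions of collapsed transcript models and no read counts. Members and lists were chosen with earlier results of these data known.

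Gene values are rounded sums of the expected counts of their transcripts. Those past filterByExpr were tested with edgeR 4.0.16 (TMM, robust quasi-likelihood, two-sided), per line on 6 libraries, and for the line by siRNA interaction on 12, with Benjamini-Hochberg adjustment over all genes. CPM uses the library total, without TMM. Transcript usage was tested with limma 3.58.1 (diffSplice on voom weights, Simes p), and by an added limma test of log2 ratios with a pseudocount of 0.5. DESeq2 1.42.0 was an alternative. All value columns were matched to samples. Members called in both lines, the largest changes per line and direction and the genes with changed usage are named in full, 14 in all. Others are named by role.

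The tests were run on simulated counts with 200 changed genes. The spread was estimated for each feature and applied alike to all libraries of a line. The departure of HEK-293T siHNRNPH1 replicate 1 was therefore not reproduced. At 3-fold, the gene-level test recovered 81 of the 191 changed genes left after filtering in HEK-293T (19631 genes, 5 false calls) and 187 of 195 in HT-1080 (15878 genes, 14 false calls). The usage tests ran on 13018 and 10752 genes. Same-numbered libraries deviated from their group means with correlations of 0.101, 0.112 and 0.0322 in HEK-293T and -0.00414, 0.0828 and 0.122 in HT-1080. Different-numbered ones gave -0.113 to 0.0448 in HEK-293T and -0.134 to 0.0225 in HT-1080. The numbers were not treated as pairs in the main fits, and a fit with them as a block is given as an alternative. No libraries of 1 group were copies of each other.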

Additional observations from a re-analysis of the deposited data

Results flagged for a closer look

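For 12 pore genes the interaction test in edgeR called a difference between HT-1080 and HEK-293T in the response to the siRNA, and each is given as the log2 fold change in HT-1080 minus that in HEK-293T. In the outer ring the differences were -0.96 for NUP107, -0.83 for NUP85, -0.76 for NUP37 and -0.51 for SEH1L. The inner ring gave -0.95 for NUP35, -0.89 for NUP93 and -0.53 for NUP188, and the channel -0.77 for NUP62 and -0.70 for NUP54. On the cytoplasmic face they were -0.68 for RAE1 and -0.50 for NUP88, and in the basket -0.67 for NUP50. NUP107, NUP35, NUP54, NUP62, NUP85 and NUP93 kept the call in all 17 alternatives. The other 6 lost it with the replicate block (adjusted p 0.0538 for NUP37 to 0.101 for NUP88). Of these, NUP37 kept it in 16 of 17 alternatives, RAE1 in 15, NUP188 and NUP88 in 6, SEH1L in 4 and NUP50 in 2.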

How the results depend on the processing

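In HEK-293T the number of called pore genes was 2 by DESeq2, 3 with a spread shared over 12 libraries and 0 with the replicate block, against 1. Over all genes, DESeq2 called 3982 of 19966 there and the shared spread 4551 of 21276. Leaving out 1 library at a time gave 0 to 23, the highest without siHNRNPH1 replicate 1, where 12557 of 20329 genes were called. With the replicate block 0 of all 19966 genes were called in HEK-293T by edgeR, 4169 had an unadjusted p under 0.05, and DESeq2 without it called 3982. In HT-1080 the count of 28 stayed between 26 and 29 when 1 library was left out, and was 19 with the shared spread. Over all genes these fits called from 9535 of 16434 to 11625 of 16512, and 6237 of 21276 with the shared spread. For the interaction, against 12, it was 7 with no filter, 6 with the replicate block, 18 by DESeq2 and 8 to 25 with 1 library left out. Over all genes the interaction called 3042 of 36829 with no filter, 2535 of 21276 with the replicate block and 5346 of 20859 by DESeq2. With 1 library left out, 2776 to 9535 genes were called. Library size alone moved the median interaction of all genes from -0.07 to 0.04 and left 10 calls, 9 lower and 1 higher. That setting called 4082 of all 21276 genes, 1935 lower and 2147 higher. For usage in HEK-293T, against 5, it was 2 with transcripts of at least 5% of the gene, 1 by the per-transcript test and 1 to 20 with 1 library left out. Over all genes these settings called 1215 of 10954, 435 of 13018 and 361 to 5576. For usage in HT-1080, against 6, it was 3 by diffSpliceDGE, 2 by the per-transcript test and 4 to 5 with 1 library left out. Over all genes these settings called 577 of 10752, 576 of 10752 and 1530 to 2234. Without HEK-293T siHNRNPH1 replicate 1, signs turned in HEK-293T for AAAS, NUP107, NUP155 (-0.06 to 0.20) and NUP37 (0.02 to -0.12), all called there, and for NDC1, NUP188, NUP50 and NUP98, not called. They turned in the interaction for SEC13, called there, and for RANBP2 and NUP43, not called. Over all libraries left out in turn, the log2 values of AAAS, NUP107 and the SEC13 interaction ran from -0.22 to 0.17, from -0.18 to 0.07 and from -0.21 to 0.34. The share of SEC13 ENST00000350697.8 in HT-1080, 0.0748 points higher with all libraries, ran from -0.705 (without siHNRNPH1 replicate 3) to 0.6467 and was -0.598 without siNegative replicate 3. The cause of these changes was not tested. Most libraries, but not all, correlated best with the same-numbered library of the other group. Whether the numbers mark real pairs was not tested, so the fits with the block are given beside those without.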
